A study of Mus musculus with 6 samples.

Results

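The 10 genes described here belong to the semaphorin family of guidance proteins: Sema3a, Sema3b, Sema3c, Sema3d, Sema3e, Sema3f, Sema4d, Sema4f, Sema5a and Sema7a. They were taken by gene symbol from the 39179 genes of the expression table, which lists 20 semaphorin genes in all, so 10 further family members serve as their comparison. The 10 were picked from the family with the RPKM values of the same 6 libraries and results on them already in view, and no cut-off for that choice is stated. Their levels and differences are therefore a description, and the adjusted p-values printed for them below are those of the fit over all genes, with no weight as independent support.

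RNA was sequenced from Ocy454 cells, a mouse osteocyte-like line used here as 1 single-cell subclone, so all 6 libraries share 1 genetic background. Cultures kept for 14 days at 37 °C were exposed for 4 h to vehicle (phosphate-buffered saline with dilute hydrochloric acid), to 1 nM PTH, the amino-terminal fragment PTH 1-34 of parathyroid hormone, or to 0.5 µM YKL-05-093, an inhibitor of the salt-inducible kinases (SIKs). Each condition had 2 libraries. The sample labels give this vehicle for the cultures, while the study's supplement names DMSO as the stock solvent of its compounds in vitro, and whether the solvents were matched is not stated. The libraries are described as experimental duplicates, without saying whether these were separate cultures, so the p-values measure only the spread between libraries, which may be technical. PTH acts on osteocytes through a receptor that raises cyclic AMP and, by way of protein kinase A, restrains SIK activity, and comparing the hormone with a direct SIK inhibitor asks which of its transcriptional effects the inhibitor shares.

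Semaphorins are ligands with a conserved sema domain. Class 3 members are secreted and bind neuropilin co-receptors paired with plexins, which pass the signal on to the cytoskeleton through small GTPases. Class 4 and class 5 members span the membrane, and Sema7a is held to it by a lipid anchor. In bone, Sema3a is known to favour osteoblasts and to restrain osteoclasts through neuropilin-1, and Sema4d, best known as an osteoclast product, restrains osteoblasts through plexin-B1.

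Library totals lay between 17505798 and 27983585 reads. Of 12 osteocyte and osteoblast marker genes, 9 reached 0.5 RPKM (reads scaled to gene length in kilobases and to the library total) on average in the vehicle and PTH libraries and 8 in the YKL-05-093 libraries, whereas the mature osteocyte genes Sost and Fgf23 had at most 3 reads in every library. Among 14 markers of other cell types, 3 reached 0.5 RPKM on average in each condition, Tubb3, Cd68 and Col2a1, and 8 had at most 3 reads in every library. The sum over all 14 was 18.4 and 24.3 RPKM with vehicle, 22.2 and 18.6 RPKM with PTH and 20.5 and 21.3 RPKM with YKL-05-093. Tubb3 supplied most of it, with condition means of 16.6, 14.4 and 15.7 RPKM in that order. Cd68 had means of 4.02, 4.02 and 4.21 RPKM. The means of both were above those of the osteocyte markers Dmp1 and Phex in each condition.

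The vehicle libraries differed from each other more than the treated pairs did, with a median absolute log2 difference of 0.33 over all genes against 0.11 for PTH and 0.10 for YKL-05-093. The difference followed gene length. In vehicle replicate 1 the median log2 deviation from the mean of the 6 libraries went from -0.23 for genes of up to 1000 bases to 0.43 for genes over 8000 bases, and in vehicle replicate 2 from 0.13 to -0.17. The gene lengths behind the RPKM of the 10 semaphorin genes were 3282 to 10786 bases. Of these genes 9, all but Sema3b, had a higher level in vehicle replicate 1 than in vehicle replicate 2. Their own median absolute log2 difference between replicates was 0.46 with vehicle, 0.12 with PTH and 0.14 with YKL-05-093. Differences from vehicle are thus less precise than the direct difference between the treatments, and values with each library's length trend removed, an alternative chosen after seeing the data, are given where they alter a reading.

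**Figure D1:**
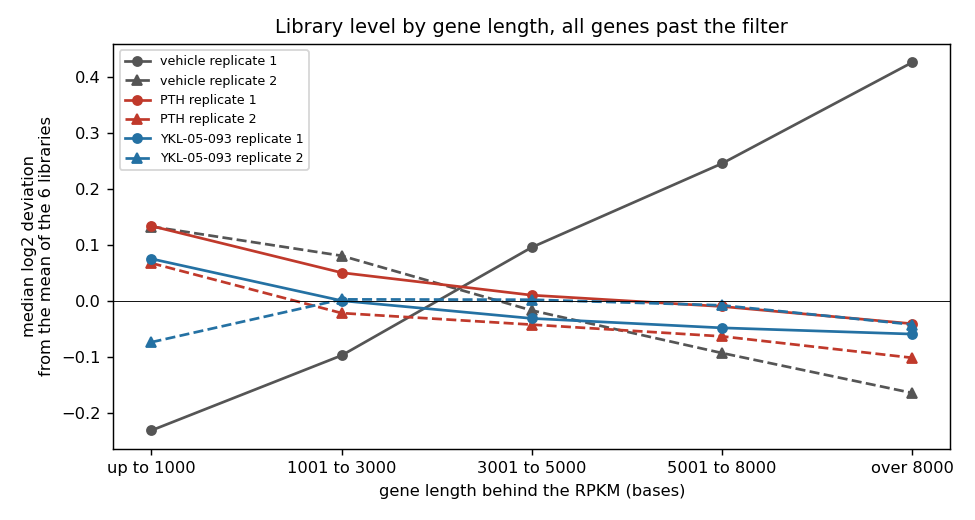
Median log2 deviation of each library from the mean of the 6 libraries (vertical axis) by the gene length behind the RPKM in bases (horizontal axis), for all genes past the level filter. Vehicle replicate 1 climbs from -0.23 to 0.43 with length while the other 5 libraries decline or stay close to 0.

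Sema3a, Sema3c, Sema3d and Sema3e lie on mouse chromosome 5 between bases 12383385 and 17730268 of GRCm38, and Sema3b, Sema3f and Sema7a lie on chromosome 9. Sema4f occupies chr6:82911885-82939769 on the minus strand. The RefSeq promoter table (GRCm38.p6, 250 bases before and 50 after a start site) had entries for 8 of the 10 genes. Because PTH signals through cyclic AMP, the entries were searched on both strands for the full cyclic AMP response element TGACGTCA, for its shorter form TGACG, which the full element contains, and for TGACTCA, the AP-1 site. The short form occurred in entries of 3 genes, Sema3d, Sema5a and Sema7a, and in 20.8% of all 32851 promoters. Neither TGACGTCA, held by 1.79% of all promoters, nor TGACTCA, held by 5.20%, occurred in any of the 10 entries of these genes. The 250 bases before the start are shown 5′ to 3′ on the coding strand for the pair of semaphorins with the widest log2 differences between PTH and YKL-05-093, at chr6:82939770-82940019 (minus strand) for Sema4f and at chr5:12382916-12383165 (plus strand) for Sema3d. Capitals mark the reverse complement of TGACG at position -84 of Sema3d, and the Sema4f stretch has no match. These are matches of letters only.
Sema4f: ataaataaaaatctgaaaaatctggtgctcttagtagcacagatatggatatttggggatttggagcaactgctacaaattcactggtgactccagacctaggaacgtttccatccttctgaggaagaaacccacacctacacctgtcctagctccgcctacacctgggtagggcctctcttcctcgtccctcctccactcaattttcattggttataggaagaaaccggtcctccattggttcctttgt
Sema3d: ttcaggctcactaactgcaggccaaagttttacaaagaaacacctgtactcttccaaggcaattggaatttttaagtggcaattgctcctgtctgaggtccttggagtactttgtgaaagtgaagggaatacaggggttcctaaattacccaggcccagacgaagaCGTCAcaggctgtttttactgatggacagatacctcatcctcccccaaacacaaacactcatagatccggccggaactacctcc

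The class 3 genes supplied most of the semaphorin mRNA in these cells. Summed over the 20 family members, semaphorin RPKM was 93.1 and 69.0 in the vehicle libraries, 69.4 and 69.7 in the PTH libraries and 82.7 and 85.2 in the YKL-05-093 libraries. Class 3 genes made up 81.8% ± 1.04 (SD, n = 2) of that sum with vehicle, 76.0% ± 0.457 with PTH and 81.3% ± 1.34 with YKL-05-093. Ordered by mean RPKM over the 6 libraries, Sema3a came first at 22.2 and was followed by Sema3c at 15.3, Sema3b at 8.83, Sema3f at 7.97 and Sema3d at 5.98. Sema3a was above Sema3c, Sema3c above Sema3b and Sema3f above Sema3d in 6 of 6 libraries although the ranges overlapped, and Sema3b exceeded Sema3f in 4 of 6. Below them stood Sema5a at 1.40, Sema4d at 0.501, Sema3e at 0.335, Sema4f at 0.332 and Sema7a at 0.267 RPKM. The range of Sema5a overlapped neither that of Sema3d above it nor that of Sema4d below it, whereas Sema4d, Sema3e, Sema4f and Sema7a overlapped their neighbours among these 4. Among the 14264 genes that reached 0.5 RPKM in 2 or more libraries, 79.5% had a lower mean than Sema3a, 47.2% a lower mean than Sema3d and 3.89% a lower mean than Sema4d.

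**Figure D2:**
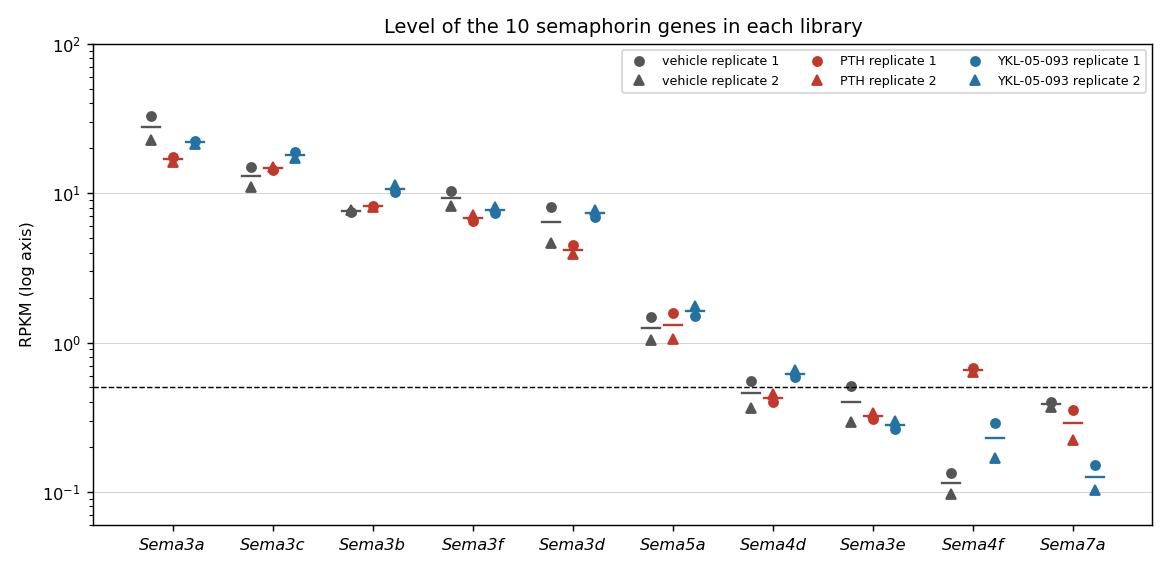
RPKM on a log axis of the 10 semaphorin genes in each of the 6 libraries, circles for replicate 1, triangles for replicate 2 and short bars for the mean of each condition, with the 0.5 RPKM level dashed. Sema4f is above the dashed line in the PTH libraries alone (0.675 and 0.632), and the 5 abundant class 3 genes stay above 3.9 RPKM in every library.

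Of the 10 genes, 8 passed the level filter and were tested with limma on log2(RPKM + 0.1), and all log2 fold changes below are on that scale. Sema3e and Sema7a did not pass. Sema4f passed only through its PTH libraries, so its difference between PTH and the other conditions was in part a condition of its being tested. Sema4d reached 0.5 RPKM in both YKL-05-093 libraries and otherwise only in vehicle replicate 1. It would not have passed without the YKL-05-093 pair, so its differences from YKL-05-093 carry the same limit. Calling required both an adjusted p under 0.05 and a difference over 2-fold. With PTH against vehicle, 1 of the 8 genes was called, Sema4f, beside 1.91% of the 14261 genes tested. With YKL-05-093 against vehicle, 0 of 8 were called by limma, beside 0.666% of 14255 genes, 2 (Sema3b and Sema3c) had an unadjusted p under 0.05, beside 8.67% of genes, and voom on the recovered reads also called 0. In the direct comparison of PTH with YKL-05-093, 1 of 8 was called, again Sema4f, beside 1.21% of genes. Both comparisons with vehicle use the same 2 vehicle libraries. In the bulk RNA of a culture, fewer cells that make a transcript and less of it per cell cannot be told apart.

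Sema4f, a membrane-spanning class 4 semaphorin, had the widest fold range of the 10. Its level was 0.133 and 0.0973 RPKM with vehicle (12 and 14 reads), 0.675 and 0.632 RPKM with PTH (75 and 62 reads) and 0.288 and 0.169 RPKM with YKL-05-093 (30 and 18 reads). The PTH libraries stood above the other 4, and the YKL-05-093 libraries above vehicle, with no overlap between any of the 3 conditions. The PTH mean was 5.67 times the vehicle mean and 2.86 times the YKL-05-093 mean. On the log2 scale Sema4f was 1.81 ± 0.27 (SE) higher with PTH than with vehicle (adjusted p = 0.0193) and 1.22 ± 0.26 higher with PTH than with YKL-05-093 (adjusted p = 0.00477), whereas the difference between YKL-05-093 and vehicle was 0.59 ± 0.37 (adjusted p = 0.777). Without vehicle replicate 1 the PTH difference was 1.93 (adjusted p = 0.0129), and without PTH replicate 1 or 2 it was 1.77 (adjusted p = 0.344) or 1.85 (adjusted p = 0.326), no longer called. The direct difference was likewise no longer called without PTH replicate 1 (1.18), PTH replicate 2 (1.26) or YKL-05-093 replicate 2 (0.96). At these read numbers the log2 fold change moved with the pseudocount, and the PTH difference was 2.42 with 0.01 RPKM added and 0.57 with 1 RPKM added.

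The 3 genes whose log2 level over the 6 libraries was most like that of Sema4f were Gbp3 (Pearson r = 0.997), Gm6977 (r = 0.989) and Fam198a (r = 0.989). Fam198a stood at 0.284 and 0.119 RPKM with vehicle, 2.75 and 2.29 RPKM with PTH and 0.627 and 0.453 RPKM with YKL-05-093, the same order of conditions. Gbp3 and Gm6977 had narrower fold ranges than Sema4f. Gbp3 stood at 1.66 and 1.48 RPKM with vehicle and 2.61 and 2.63 RPKM with PTH. Gm6977 stood at 8.96 and 8.41 RPKM with vehicle and 15.0 and 16.0 RPKM with PTH. The r does not measure the size of a change. In all, 72 tested genes had an r above 0.95 with Sema4f, over 6 libraries that fall into 3 conditions.

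Sema3a, the most abundant semaphorin of these cells, measured 33.1 and 22.6 RPKM with vehicle, 17.5 and 16.3 RPKM with PTH and 22.3 and 21.5 RPKM with YKL-05-093. The PTH libraries were lowest and the YKL-05-093 libraries lay between, just below vehicle replicate 2, without overlap. The PTH mean was 0.607 of the vehicle mean, a log2 difference of -0.69 ± 0.22 (SE) that did not pass (adjusted p = 0.216). With the length trend removed the difference was -0.58 (adjusted p = 0.0256), smaller but past the p threshold, which 6.21% of genes then passed. With YKL-05-093 the log2 difference from vehicle was -0.32 ± 0.22 (adjusted p = 0.802). In the direct comparison, where the replicates lay closer together, Sema3a was lower with PTH by -0.37 ± 0.07 (adjusted p = 0.00136). Its share of all semaphorin RPKM was 35.6% and 32.8% with vehicle, 25.2% and 23.4% with PTH and 27.0% and 25.3% with YKL-05-093, so both treated pairs were below vehicle by this within-library ratio, which was not tested.

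Sema3d, a secreted guidance cue, showed the widest class 3 difference between the treatments. It measured 8.13 and 4.68 RPKM with vehicle, 4.48 and 3.92 RPKM with PTH and 6.97 and 7.70 RPKM with YKL-05-093. Every PTH library was below every other library, while the YKL-05-093 libraries fell inside the wide vehicle range. Sema3d was lower with PTH than with YKL-05-093 by -0.79 ± 0.09 on the log2 scale (adjusted p = 1.08e-05), a ratio of means of 0.572. Against vehicle, the log2 difference was -0.55 ± 0.26 with PTH (adjusted p = 0.434) and 0.24 ± 0.26 with YKL-05-093 (adjusted p = 0.874). The PTH difference was -0.16 without vehicle replicate 1 (adjusted p = 0.431) and -0.94 without vehicle replicate 2 (adjusted p = 0.0099).

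Sema3b and Sema3c were both highest with YKL-05-093. Sema3b, a secreted ligand known for tumour-suppressive activity, had close vehicle replicates, at 7.52 and 7.70 RPKM, and measured 8.18 and 8.13 RPKM with PTH and 10.2 and 11.3 RPKM with YKL-05-093. These groups did not overlap, and the log2 difference from vehicle was 0.10 ± 0.15 with PTH (adjusted p = 0.845) and 0.49 ± 0.16 with YKL-05-093 (adjusted p = 0.382). Sema3c, which guides neural crest cells in the developing heart, measured 15.1 and 11.1 RPKM with vehicle, 14.4 and 15.0 RPKM with PTH and 18.8 and 17.2 RPKM with YKL-05-093. The YKL-05-093 libraries were above the other 4, and the PTH libraries lay within the vehicle range. The log2 difference of Sema3c from vehicle with YKL-05-093 was 0.47 ± 0.20 (adjusted p = 0.569), and 0.61 with the length trend removed (adjusted p = 0.0246, with 3.07% of genes past the p threshold). Directly, PTH levels were below YKL-05-093 levels by -0.39 ± 0.08 for Sema3b (adjusted p = 0.00304) and by -0.29 ± 0.07 for Sema3c (adjusted p = 0.0109).

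Sema3f, which signals mainly through neuropilin-2, measured 10.3 and 8.27 RPKM with vehicle, 6.53 and 7.19 RPKM with PTH and 7.39 and 8.08 RPKM with YKL-05-093. Both treated pairs lay below vehicle without overlap, and no difference passed: -0.43 ± 0.18 on the log2 scale for PTH (adjusted p = 0.358), -0.26 ± 0.18 for YKL-05-093 (adjusted p = 0.806) and -0.17 ± 0.09 between them (adjusted p = 0.299). Sema3e, a ligand that binds plexin-D1 without a neuropilin, was scarce, at 0.511 and 0.294 RPKM with vehicle, 0.308 and 0.336 RPKM with PTH and 0.262 and 0.297 RPKM with YKL-05-093. Its treated libraries overlapped the vehicle range in both comparisons.

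With no limit on fold, 5 of the 8 tested genes passed an adjusted p of 0.05 at any fold in the direct comparison of PTH with YKL-05-093, as did 9.97% of all genes. Sema4f was higher with PTH, and Sema3a, Sema3b, Sema3c and Sema3d were lower, the direction of 5.11% of all genes at this threshold. The differences of the 4 class 3 genes were all under 2-fold. Summed class 3 RPKM was 53.0 and 52.8 with PTH against 68.1 and 68.5 with YKL-05-093, with the vehicle libraries at 76.8 and 55.9, above the PTH pair and on either side of the YKL-05-093 pair. Over 14 alternative settings, Sema3d passed in 10 and Sema3a, Sema3b and Sema3c in 7 each. None of the 4 passed with no filter on low values or with all 6 libraries in 1 fit, which brings the vehicle spread into the error. Sema3a, Sema3b and Sema3c also did not pass with the variance trend on the mean log2 value. The remaining failures left a condition with 1 library. They were the fits without either PTH replicate for all 4 genes, and without either YKL-05-093 replicate for Sema3a, Sema3b and Sema3c.

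**Figure D3:**
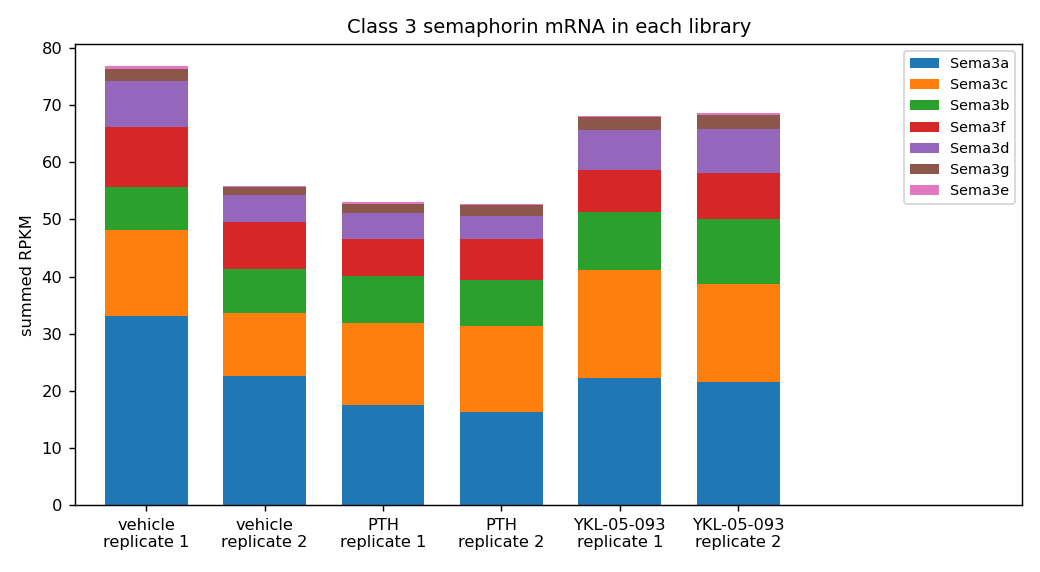
RPKM of the 7 class 3 semaphorin genes stacked for each of the 6 libraries. The PTH bars reach 53.0 and 52.8 and the YKL-05-093 bars 68.1 and 68.5, while the vehicle bars, at 76.8 and 55.9, differ more from each other than the treated pairs do.

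Outside class 3, Sema4d measured 0.551 and 0.365 RPKM with vehicle, 0.399 and 0.452 RPKM with PTH and 0.583 and 0.653 RPKM with YKL-05-093. The YKL-05-093 libraries were the highest, and the log2 difference was 0.38 ± 0.23 from vehicle (adjusted p = 0.772) and -0.45 ± 0.17 between PTH and YKL-05-093 (adjusted p = 0.115). Sema4d passed the filter only with that YKL-05-093 pair, so its height there was in part a condition of its being tested. Sema5a, a membrane semaphorin with thrombospondin repeats, measured 1.48 and 1.04 RPKM with vehicle, 1.57 and 1.05 RPKM with PTH and 1.5 and 1.76 RPKM with YKL-05-093. It was the only one of the 10 whose PTH and YKL-05-093 libraries overlapped, and its log2 difference between them was -0.32 ± 0.14 (adjusted p = 0.207).

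Sema7a, which can also signal through integrins, was lowest with YKL-05-093. Its level was 0.400 and 0.370 RPKM with vehicle (23 and 34 reads), 0.353 and 0.224 RPKM with PTH (25 and 14 reads) and 0.150 and 0.103 RPKM with YKL-05-093 (10 and 7 reads). The YKL-05-093 libraries were lowest without overlap, at a ratio of means of 0.328 to vehicle. Sema7a entered the test when the filter was lowered to 0.1 RPKM or left out, where the log2 difference between YKL-05-093 and vehicle was -1.11 (adjusted p = 0.313 and 0.432).

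**Figure D4:**
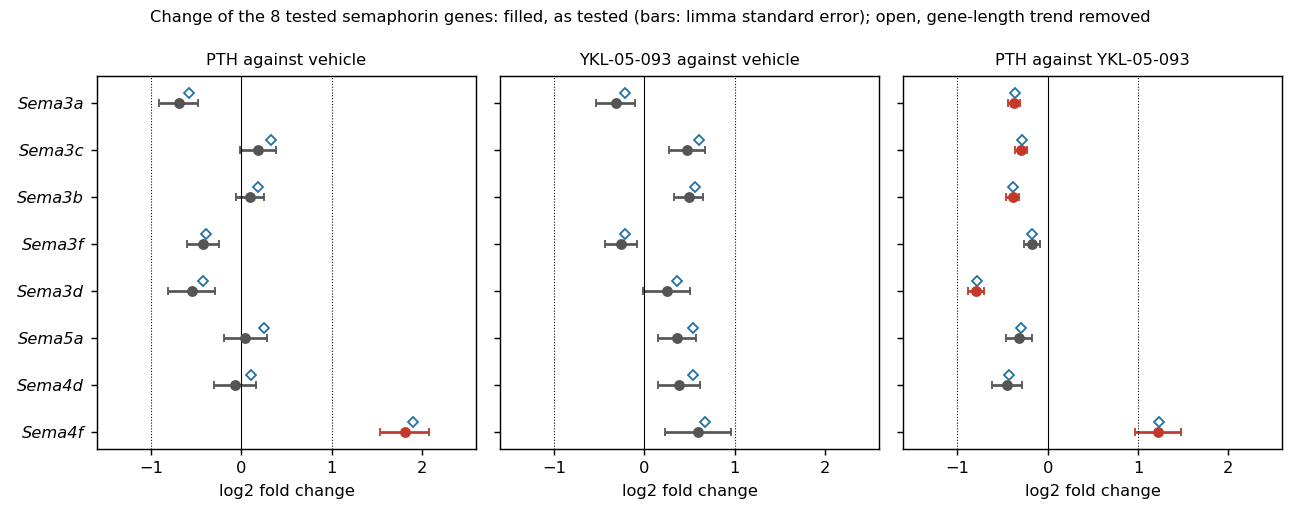
Log2 fold change (horizontal axis) of the 8 tested semaphorin genes in the 3 comparisons, filled circles with limma standard errors, red where the adjusted p was under 0.05, and open diamonds with the length trend removed. Sema4f is at 1.81 and 1.22 in the comparisons that involve PTH, and Sema3a, Sema3b, Sema3c and Sema3d are red to the left of 0 in the direct comparison.

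The median log2 difference of the 8 tested genes was -0.01 with PTH relative to vehicle, 0.37 with YKL-05-093 relative to vehicle and -0.34 with PTH relative to YKL-05-093, beside -0.03, -0.04 and 0.01 over all genes tested. Of these 8 genes, 2 were higher and 3 lower with PTH than with vehicle without overlap of the libraries, where 19.1% and 24% of tested genes were. For YKL-05-093 against vehicle, 5 were higher and 2 lower, beside 15.7% and 22.1%. Between the treatments, 1 was higher and 6 lower with PTH, beside 26.3% and 23.7%. These counts and the medians above include Sema4f and Sema4d, which passed the filter only with their high PTH and YKL-05-093 libraries, respectively. With Sema3e and Sema7a, which did not pass the filter, the counts over all 10 were 2 and 4, 5 and 3, and 3 and 6. Of the 10 other semaphorin genes, 7 passed the filter and limma called 0 in each comparison, also at an adjusted p under 0.05 with no limit on fold. Voom also called 0 in each. At an unadjusted p under 0.05 there were 2, 1 and 4 in the order given. The share of all genes at that p was 8.67% for YKL-05-093 against vehicle. It is not given here for the other comparisons, so the 2 and the 4 are counts only. The medians of these 7 genes were 0.02, 0.08 and 0.07 in the same order. For PTH against vehicle the pair with an unadjusted p under 0.05 was Sema4c, at 3.92 and 3.73 RPKM with vehicle and 5.25 and 5.15 RPKM with PTH, and Sema6c, at 1.85 and 1.54 RPKM with vehicle and 2.35 and 2.74 RPKM with PTH. Both passed the p threshold for PTH against vehicle once the length trend was removed, at 0.51 (adjusted p = 0.0473) for Sema4c and 0.65 (adjusted p = 0.0448) for Sema6c. In that fit 6.21% of all genes passed the same threshold. Sema4b, with Sema4c the most abundant of these other genes, measured 4.00 and 3.40 RPKM with vehicle, 3.09 and 3.52 RPKM with PTH and 3.38 and 3.60 RPKM with YKL-05-093 and passed the threshold in none of the 3 comparisons. Of the 7 tested, Sema3g had the lowest adjusted p, 0.102, at a log2 difference of -0.37 between PTH and YKL-05-093. Sema6c and Sema3g were named after their values were seen.

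On the receptor side, Nrp1, which encodes the neuropilin-1 co-receptor of Sema3a, rose with PTH. Its level was 5.14 and 2.91 RPKM with vehicle, 22.4 and 22.4 RPKM with PTH and 8.48 and 8.64 RPKM with YKL-05-093. The 3 conditions did not overlap, and the PTH replicates were nearly equal. Nrp1 was 2.50 ± 0.26 higher with PTH than with vehicle on the log2 scale (adjusted p = 0.00469) and 1.38 ± 0.07 higher than with YKL-05-093 (adjusted p = 1.46e-09). The difference between YKL-05-093 and vehicle was 1.13 ± 0.26 (adjusted p = 0.170), and 1.23 with the length trend removed (adjusted p = 0.01). Without vehicle replicate 1 the PTH difference was 2.90 (adjusted p = 0.000346), and without PTH replicate 1 or 2 it was 2.51 (adjusted p = 0.0863) or 2.50 (adjusted p = 0.0816), not called. Without either PTH replicate, limma called 0 genes of the whole table in the direct comparison, Nrp1 included (adjusted p = 0.127 and 0.12).

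Nrp2, the neuropilin-2 co-receptor of Sema3f, was with Plxnb2 among the 2 most abundant receptor genes, at 44.4 and 27.0 RPKM with vehicle, 33.1 and 29.9 RPKM with PTH and 38.2 and 40.9 RPKM with YKL-05-093. Between the treatments it was lower with PTH by -0.33 ± 0.07 on the log2 scale (adjusted p = 0.00830). That difference did not pass with all 6 libraries in 1 fit (adjusted p = 0.888) or with no filter on low values (adjusted p = 0.182). Nor did it with the variance trend on the mean log2 value (adjusted p = 0.104). The RPKM ratio of Nrp1 to Nrp2 was 0.112 ± 0.00564 (SD, n = 2) with vehicle, 0.714 ± 0.0526 with PTH and 0.217 ± 0.00764 with YKL-05-093. The ratio of Nrp1 to its ligand gene Sema3a was 0.155 and 0.129 with vehicle, 1.28 and 1.38 with PTH and 0.380 and 0.401 with YKL-05-093, so that Nrp1 mRNA exceeded Sema3a mRNA per length only in the PTH libraries. Such ratios within a library show unequal change of a pair of genes and were not tested.

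**Figure D5:**
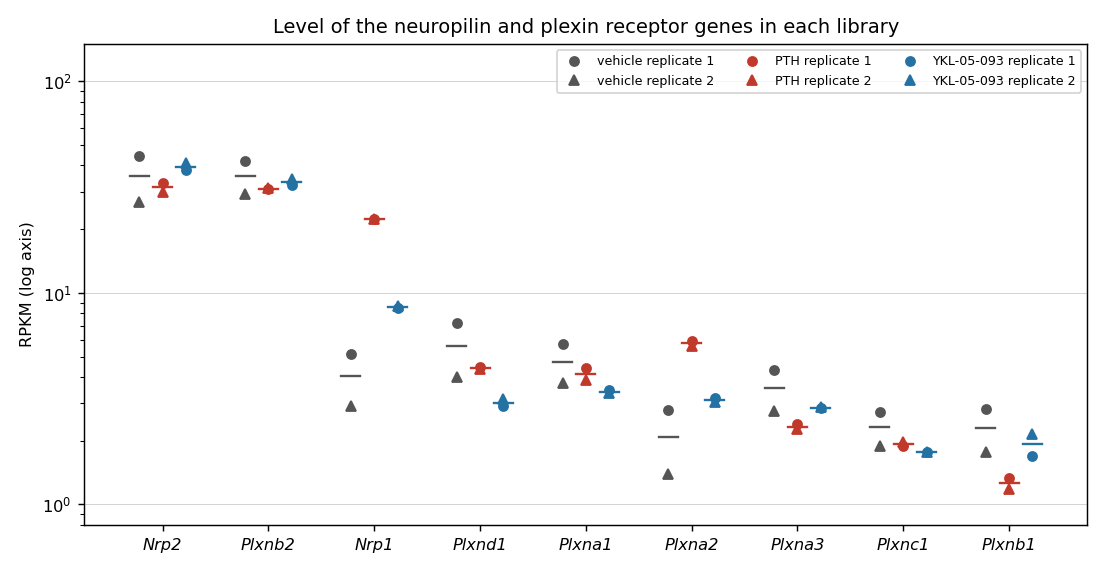
RPKM on a log axis of the 9 neuropilin and plexin genes that passed the filter, in each library, with circles for replicate 1, triangles for replicate 2 and short bars for condition means. Nrp1 stands at 22.4 in both PTH libraries against 5.14 and 2.91 with vehicle, and Plxna2 follows the same order of conditions.

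Of the 11 plexin and neuropilin genes, 9 passed the filter, and Plxna4 and Plxnb3 had at most 3 reads in any library. Limma called 1 of the 9 with PTH relative to vehicle, Nrp1, 0 with YKL-05-093 and 1 in the direct comparison, Nrp1, beside the 1.91%, 0.666% and 1.21% of all genes. With YKL-05-093, 2 of the 9, Nrp1 and Plxnd1, had an unadjusted p under 0.05, beside 8.67% of genes, and voom called 0. Voom called 2 with PTH relative to vehicle, Nrp1 and Plxna2. The share of all genes that voom called is not given here, so the 2 is a count only. In the direct comparison 5 of 9 passed the adjusted p at any fold, beside 9.97% of all genes. Plxna2, a partner of neuropilin-1 in Sema3a reception, was higher with PTH, at 5.90 and 5.63 RPKM against 3.17 and 3.04 RPKM with YKL-05-093, a log2 difference of 0.87 ± 0.07 (adjusted p = 3.86e-07). With all 6 libraries in 1 fit, which brings the vehicle spread into the error, this direct difference did not pass (adjusted p = 0.307). Against 2.79 and 1.39 RPKM with vehicle the PTH difference was 1.5 ± 0.29 (adjusted p = 0.0541), and 1.75 with the length trend removed (adjusted p = 0.000343), 1.58 with voom (adjusted p = 0.0484) and 1.5 with all 6 libraries in 1 fit (adjusted p = 0.0213). It did not pass with no filter on low values, where limma called no gene of the whole table. These are not all the settings run for Plxna2. Plxnd1, the receptor of Sema3e, was also higher with PTH than with YKL-05-093, by 0.53 ± 0.09 (adjusted p = 0.000525). That difference did not pass with all 6 libraries in 1 fit (adjusted p = 0.630) or with no filter on low values (adjusted p = 0.0589). Plxnd1 measured 7.24 and 4.01 RPKM with vehicle, 4.45 and 4.37 RPKM with PTH and 2.93 and 3.14 RPKM with YKL-05-093, so the YKL-05-093 libraries were the lowest.

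Plxnb1, the receptor of Sema4d, was lower with PTH than with YKL-05-093 by -0.57 ± 0.12 on the log2 scale (adjusted p = 0.00631), at 1.33 and 1.19 RPKM against 1.69 and 2.16 RPKM, with vehicle at 2.84 and 1.77 RPKM. Alternative settings for Plxnb1 are not given here. Plxnb2 was the most abundant plexin gene, at 42.1 and 29.3 RPKM with vehicle, 30.9 and 31.2 RPKM with PTH and 32.2 and 34.4 RPKM with YKL-05-093. Plxna1, Plxna3 and Plxnc1 had condition means between 1.77 and 4.73 RPKM, and in the direct comparison their log2 differences were 0.27 (adjusted p = 0.0522), -0.29 (adjusted p = 0.0596) and 0.12 (adjusted p = 0.556). The median log2 difference of the 9 receptor genes was -0.18, -0.22 and 0.12 in the same order of comparisons.

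Among 31 listed rows of intracellular plexin effectors, 28 passed the filter and 1 was called for PTH against vehicle, Farp2, beside 1.91% of all genes. Farp2, a Rac exchange factor that binds class A plexins and is released by Sema3a, measured 15.9 and 12.8 RPKM with vehicle, 6.53 and 6.18 RPKM with PTH and 11.9 and 13.5 RPKM with YKL-05-093. It fell with PTH by 1.16 on the log2 scale (SE 0.17, adjusted p = 0.0201). It was lower with PTH than with YKL-05-093 by -0.99 ± 0.08 (adjusted p = 4.43e-07), while the YKL-05-093 libraries overlapped vehicle. Exons of Stk25 on the opposite strand cover 19.4% of the exon bases of Farp2, and whether counting used strand is not given in the sources used here. Without PTH replicate 1 or 2, Farp2 was no longer called against vehicle, at log2 differences of -1.20 and -1.12. Between the treatments these fits gave -1.02 and -0.95, and neither passed the p threshold. With no filter on low values the Farp2 difference from vehicle did not pass (adjusted p = 0.114). The effectors Fyn and Gsk3b were also lower in the direct comparison, by -0.32 and -0.25 (adjusted p = 0.00695 and 0.0218). With Farp2 they made 3 of the 28 effectors past the adjusted p at any fold, near the 9.97% of all genes. Alternative settings for Fyn and Gsk3b are not given here. The most abundant effectors, Cfl1 and Rhoa, had log2 differences between -0.16 and 0.01 in the 3 comparisons, none past the threshold.

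Of 13 genes for co-receptors and other binding partners, 6 passed the filter and 1 was called for YKL-05-093 against vehicle, Kdr, a receptor of vascular endothelial growth factor that can join plexin complexes, beside 0.666% of all genes. Kdr measured 0.582 and 0.476 RPKM with vehicle, 0.812 and 1.06 RPKM with PTH and 1.72 and 1.43 RPKM with YKL-05-093, a log2 difference of 1.42 ± 0.20 for YKL-05-093 against vehicle (adjusted p = 0.0377). Kdr was not called with the filter at 0.1 RPKM (adjusted p = 0.0573) or left out (0.197), with a pseudocount of 1 (log2 difference 0.75, adjusted p = 0.101) or with the variance trend on the mean log2 value (adjusted p = 0.21). The call was also lost without vehicle replicate 1 (adjusted p = 0.0818), YKL-05-093 replicate 1 (adjusted p = 0.538) or YKL-05-093 replicate 2 (adjusted p = 0.0966). The most abundant of this list, Itgb1, a beta integrin chain used by Sema7a, and Ptk7 had no difference past the threshold in the 3 comparisons. Of 4 proprotein convertases that can cut class 3 semaphorins, 3 passed the filter and limma and voom called none in the 3 comparisons. At an unadjusted p under 0.05 there were 0, 0 and 2. The share of all genes at that p in the direct comparison is not given here, so the 2 is a count only. Pcsk6 and Pcsk7 were the most abundant, with condition means of 25.6 to 30.5 and 8.44 to 9.46 RPKM, and Furin was higher with PTH than with YKL-05-093 by 0.28 ± 0.07 (adjusted p = 0.0185). Alternative settings for Furin are not given here. In the same libraries limma called 3 of the 9 tested osteocyte and osteoblast markers for PTH against vehicle, beside 1.91% of all genes. Pdpn was 1.44 higher (adjusted p = 0.0147), Bglap 1.58 higher (adjusted p = 0.0283) and Sp7 lower by -1.97 (adjusted p = 0.00189) on the log2 scale, and Bglap has near-identical paralogues among which reads can be split. Of the 3 tested markers of other cell types, the cartilage collagen gene Col2a1 was called higher with PTH, at 1.71 and 1.54 RPKM against 0.625 and 0.577 RPKM with vehicle (log2 difference 1.3, adjusted p = 0.0147) and 0.730 and 0.771 RPKM with YKL-05-093 (log2 difference 1.02, adjusted p = 0.000136), while Acan, another cartilage marker, had at most 3 reads in every library. The part of these markers in the semaphorin values was not tested.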

How the data were processed

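Per the labels and methods, the authors depleted ribosomal RNA (RiboZero), made stranded libraries, sequenced paired reads on a HiSeq instrument, aligned them with STAR to mm10, counted with HTSeq 0.6.0 on Ensembl 75 genes and deposited RPKM values. CASAVA 1.7 is named in the submitters' processing notes. The single-library files equal the series table in 6 of 6 cases. Every value above 0 came out within 0.001 of a whole read once gene lengths and library totals were solved for (100.0% of values, 26214 genes, 99.7% of each total). Lengths were solved so that reads come out whole, so the 100.0% is in part built in. The length matched the annotated exon bases, less 1 per merged exon, for 36.0% of these genes. For the others it was the smallest length giving whole reads, so their reads could be low by a whole factor. The recovered reads entered the variance trend and an alternative fit.

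Genes that reached 0.5 RPKM in 2 or more of the 6 libraries were tested with limma 3.58.1 (R 4.3.3) on log2(RPKM + 0.1), each comparison on its own 4 libraries, genes without a read in those left out, with Benjamini-Hochberg adjustment over all genes. The study used a count test, whereas here the deposited RPKM were tested on a log scale, with voom on the recovered reads as an alternative. With 2 libraries against 2, an exact permutation test could not go below a two-sided p of 0.333 and was not used. The code was tested on simulated data.

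The genes named were the 10 members, called genes of the semaphorin pathway lists, the plexins and neuropilins past the filter, and the 2 most abundant genes of each other list, with the 3 genes most correlated with each called member. Called cell type markers were named after their values were seen. Members and lists were chosen with earlier results of these data known. Coordinates are from GENCODE M21 (GRCm38) and promoter sequences from RefSeq. Alternatives varied the pseudocount, filter, scaling, variance trend, libraries in the fit, replicate block and single libraries, and, added after the data were seen, the length trend.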

Additional observations from a re-analysis of the deposited data

How the results depend on the processing

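Genes called over the whole table numbered 272 with PTH relative to vehicle, 95 with YKL-05-093 relative to vehicle and 172 between the treatments. With no filter on low values the first 2 became 0 and 0, with the variance trend on the mean log2 value 160 and 6, and leaving out 1 library gave 14 to 669 (14 without PTH replicate 1 or 2, 669 without vehicle replicate 2), 11 to 321 (42 and 321 without vehicle replicate 1 and 2, 11 and 35 without YKL-05-093 replicate 1 and 2) and, in the direct comparison, 0 to 155 (0 without PTH replicate 1 or 2, 111 without YKL-05-093 replicate 2). YKL-05-093 against vehicle gave 55 with a pseudocount of 1, 57 with the filter at 0.1 RPKM, 173 with all 6 libraries in 1 fit and 178 with the length trend removed. The direct comparison gave 98 with a pseudocount of 1, 102 with all 6 libraries in 1 fit and 1421 with no limit on fold. The cause of these shifts was not tested.

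The labels number the replicates without saying whether equal numbers mark a pair. The correlation of replicate deviations was -0.03 between vehicle and PTH and -0.05 in both other pairs, which cannot settle whether they were paired. The fit with a replicate block called 440 genes with PTH, 215 with YKL-05-093 and 196 in the direct comparison, with the same semaphorin counts of 1, 0 and 1.

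The semaphorin count for PTH against vehicle was 0 in place of 1 with a pseudocount of 1, with no filter and with the trend on the mean log2 value (Sema4f adjusted p = 0.142, 0.0845 and 0.246), and 0 to 1 with 1 library left out. In the direct comparison it was 0 under the same settings and with all 6 libraries in 1 fit, 0 to 1 with 1 library left out, and 5 with no limit on fold. The log2 difference of Sema4f stayed positive in every setting run. Over all alternatives its adjusted p lay between 2.12e-05 and 0.344 for PTH against vehicle, and between 8.12e-05 and 0.3 in the direct comparison. Signs turned for uncalled differences only. For PTH against vehicle Sema4d went from -0.07 to 0.10 with the length trend removed, and leaving out 1 library gave -0.042 to 0.41 for Sema3c, -0.31 to 0.17 for Sema4d and -0.22 to 0.31 for Sema5a. Sema3d with YKL-05-093 against vehicle ran from -0.15 to 0.64. Where a fit left a condition with 1 library, that library was assumed to vary like the others. The 12 to 14 reads of Sema4f with vehicle and 7 to 34 reads of Sema7a limit how finely their changes can be measured.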
